A study of Mus musculus with 2 samples.

Results

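The 10 circadian clock genes examined were Arntl, Clock, Npas2, Per1, Per2, Per3, Cry1, Cry2, Nr1d1 and Dbp, taken from the deposited expression tables by gene symbol. Each was found in the control library, 9 had a row of their own in both libraries and 8 had a level above 0 in both, out of 23314 genes named in both libraries, of which 18737 had a level above 0 in either. The libraries came from mouse primordial germ cells (PGCs), the embryonic precursors of eggs and sperm, sorted at E13.5 from male and female genital ridges by an Oct4-deltaPE-GFP reporter. Both were infected with a lentivirus at an MOI of 5 and cultured for 1 day. The control PGCs received a control lentivirus and the Klf9-OE PGCs received a vector of the CSII-EF type carrying the coding region of Klf9. Several control vectors are described in the study, and which of them this library received is not given in the sources used here. The medium is described as containing bFGF in the sample labels and as lacking it in the study's own account of this experiment. There was 1 library per condition. The difference between them therefore has no replicate check, no p-value is given, and the intervals given with each value are those of Cufflinks for a single library.

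The mammalian clock is a transcriptional feedback loop. ARNTL (also called BMAL1) pairs with CLOCK or its paralog NPAS2 and activates genes with E-box elements, among them the Per and Cry genes, whose proteins return to the nucleus and repress that activity. Nr1d1 encodes REV-ERB alpha, which represses Arntl through a response element shared with the ROR receptors, and Dbp encodes an output activator that binds D-box elements. KLF9 is a zinc finger factor that binds GC and CACCC boxes, and its own gene is known to respond to glucocorticoids and to follow the clock in some tissues. Clock transcripts rise and fall over the day in many cells. The time of day at which each culture was collected is not given in the sources used here, so a difference in clock phase and a difference between the conditions cannot be told apart.

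Klf9 had an FPKM of 2.27 in the control library and 80.8 in the Klf9-OE library, as the labels say. FPKM is the number of fragments per kilobase of transcript, scaled to the mapped fragments of the library, and for single-end reads it equals RPKM. The germ cell label was checked against 10 marker genes, which were all above an FPKM of 1 in both libraries, Pou5f1 at 387 and Ddx4 at 300 in the control library. Their summed level was 1555 in control and 1326 in Klf9-OE PGCs, and 8 of the 10 were lower in Klf9-OE. The sums of 7 gonad somatic markers were 21.8 and 26.8, with 3 higher and 4 lower, among them Amh at 5.99 and 9.29 and Sox9 at 2.04 and 1.09. Those of 5 endothelial markers were 19.9 and 30.2, with 3 higher and 2 lower, and Pecam1, which germ cells also express, was at 16.8 and 24.2. Those of 5 macrophage markers were 4.22 and 5.50, with 3 higher and 2 lower. None of these markers was at 0 in both libraries, while Emcn was listed at 0 in Klf9-OE. In bulk RNA, fewer cells of a type and less RNA per cell cannot be told apart, and the part of these markers in the clock gene values was not tested.

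In control PGCs, the levels of the clock genes ran from an FPKM of 1.56 to 42.2. Cry1, a transcriptional repressor, was the most abundant with an FPKM of 42.2 (95% interval 40.7 to 43.6), above 87.2% of the genes with a level above 0. Clock at 16.5 (15.8 to 17.2), Per1 at 16.5 (15.6 to 17.4) and Arntl at 15.0 (13.9 to 16.0) followed, and neighbours in this order could not be separated by their intervals. Per3 at 11.0 (10.4 to 11.7) and Cry2 at 10.7 (9.89 to 11.5) formed the next pair that overlapped. Nr1d1 at 8.69 (7.88 to 9.51), Npas2 at 5.47 (4.98 to 5.95), Dbp at 2.83 (2.28 to 3.38) and Per2 at 1.56 (1.35 to 1.77) came below, each apart from its neighbours. The activator partners Arntl and Clock were thus close in level, while Cry1 stood well above Cry2 and Per1 well above Per2. In Klf9-OE PGCs, Cry1 again headed the order, followed by Arntl, Clock and Per1, and the intervals of Cry2 and Nr1d1 overlapped. The plot of levels by library shows these values.

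**Figure D1:**
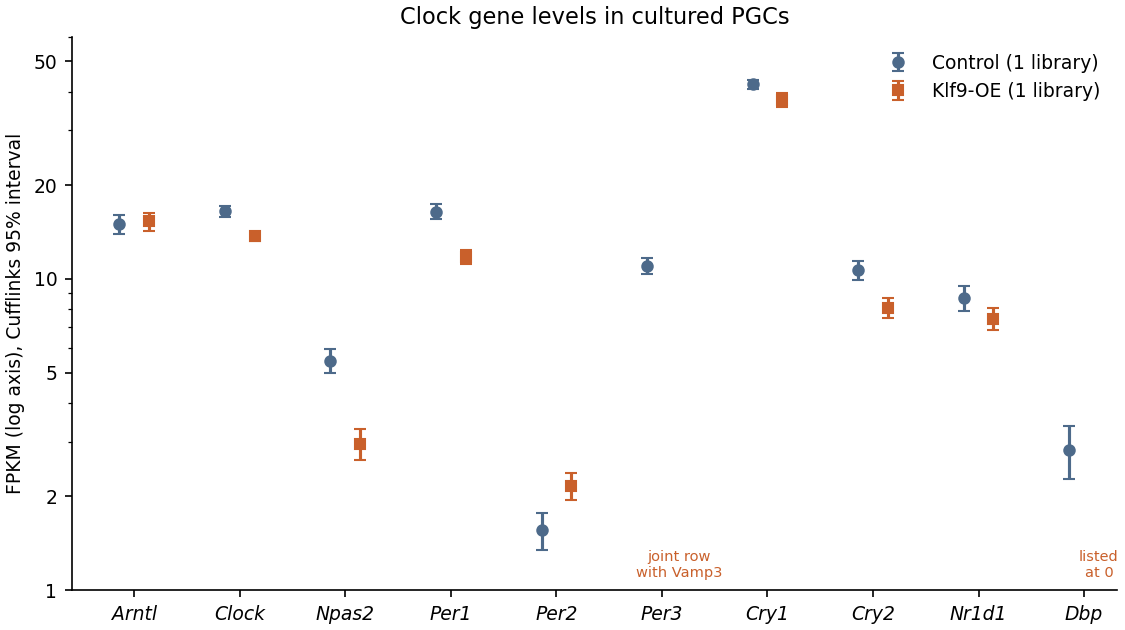
FPKM of the 10 clock genes (log axis) in 1 control and 1 Klf9-OE library, where bars are the Cufflinks 95% interval within a library. Npas2, Per1, Cry2, Clock and Cry1 lie lower in Klf9-OE and Per2 lies higher, each with intervals apart, whereas Arntl and Nr1d1 overlap. Per3 has no value of its own and Dbp is listed at 0 in Klf9-OE.

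The promoters of the clock genes were searched for elements through which the loop works, and 4 are printed because they hold E-box or D-box letters (Per1, Cry1 and Per3) or belong to the clock gene with the lowest ratio between the libraries (Npas2). They are RefSeq promoters on GRCm38.p6, read 5′ to 3′ on the gene's strand, within the 250 bases before the transcription start and without bases that an annotated exon covers. Capitals mark an E-box (CACGTG), a D-box (TTATGTAA or TTACGTAA), a GC box (GGGCGG) or a CACCC box (CCACCC), on either strand. The windows are chr11:69098699-69098947 on the forward strand for Per1, chr10:85185065-85185304 on the reverse strand for Cry1, chr4:151044666-151044915 on the reverse strand for Per3 and chr1:39194022-39194211 on the forward strand for Npas2.
Per1: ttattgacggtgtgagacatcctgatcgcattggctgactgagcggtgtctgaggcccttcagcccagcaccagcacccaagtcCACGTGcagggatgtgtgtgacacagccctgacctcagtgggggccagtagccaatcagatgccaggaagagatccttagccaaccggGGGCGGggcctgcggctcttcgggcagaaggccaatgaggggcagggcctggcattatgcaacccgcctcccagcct
Cry1: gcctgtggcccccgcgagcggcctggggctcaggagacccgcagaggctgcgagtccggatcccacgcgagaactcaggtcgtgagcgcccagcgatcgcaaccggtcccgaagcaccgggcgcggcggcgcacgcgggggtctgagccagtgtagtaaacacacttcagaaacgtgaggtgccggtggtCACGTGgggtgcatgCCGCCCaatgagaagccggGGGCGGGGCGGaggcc
Per3: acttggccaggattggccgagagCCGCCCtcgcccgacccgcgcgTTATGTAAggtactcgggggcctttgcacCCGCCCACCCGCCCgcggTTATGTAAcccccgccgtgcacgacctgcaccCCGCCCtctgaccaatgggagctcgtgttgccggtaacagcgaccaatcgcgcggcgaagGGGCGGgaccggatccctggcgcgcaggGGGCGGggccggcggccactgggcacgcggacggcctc
Npas2: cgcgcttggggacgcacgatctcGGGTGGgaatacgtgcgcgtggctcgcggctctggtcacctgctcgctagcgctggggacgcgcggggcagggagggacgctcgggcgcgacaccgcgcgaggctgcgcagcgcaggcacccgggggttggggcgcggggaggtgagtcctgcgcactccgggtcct

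Promoters were found for 9 of the 10 genes, in 13 windows, since some genes have several start sites. Per2 had no entry. An E-box was present in Cry1, starting at position -60 from the start site, and in Per1, at position -166, and in 6.02% of the 32851 windows of all genes. The D-box occurred in Per3 alone among these genes, at positions -205 and -158, and in 0.931% of all windows. The response element of REV-ERB and ROR receptors (AAAGGTCA, ATAGGTCA, TAAGGTCA or TTAGGTCA) was in none of the 13 windows, against 2.98% of all windows. The cAMP element (TGACGTCA) was in none of the 13 windows either, against 1.55% of all windows. The search took only these exact letters, and the windows end before the start site. Elements spelled otherwise, or lying across or after the start, would be missed. Whether Arntl holds the element through which REV-ERB alpha represses it was therefore not tested. A GC box was present in 8 of the 9 genes and in 11 of the 13 windows, against 32.7% of all windows, with 5 copies in Cry2 and 6 in Per3. The Arntl windows overlap, and the same GC boxes are counted in each of them. A CACCC box was present in 6 of the 9 genes and in 6 of the 13 windows, against 28.1% of all windows, and in Per3 it overlapped GC boxes. The clock gene windows had a GC content of 49.2% to 77.6%, and the median of all windows was 52.4%. A match shows only that these letters lie in the window, and no binding data were used.

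**Figure D2:**
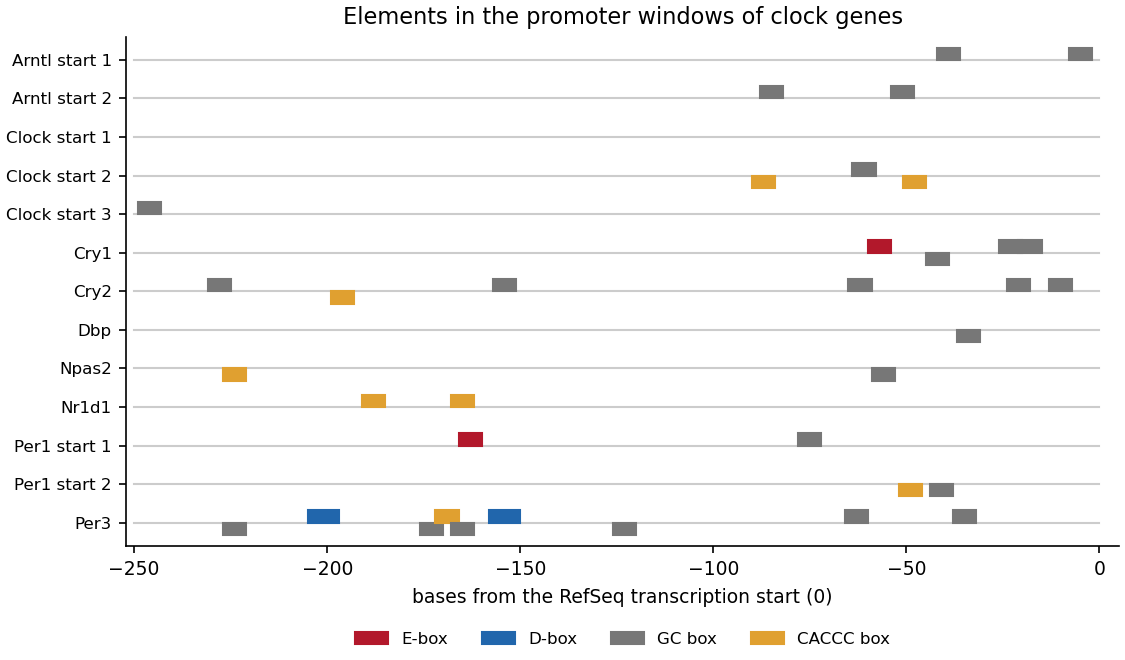
Position of E-boxes, D-boxes, GC boxes and CACCC boxes in bases from the RefSeq transcription start, for 13 promoter windows of 9 clock genes. Marks above a line are on the strand of the gene and marks below it on the other strand. Per3 holds both D-boxes and Cry1 and Per1 hold the E-boxes.

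Between the libraries, 5 of the 8 clock genes with a level in both were lower in Klf9-OE PGCs with intervals that did not overlap (Npas2, Per1, Cry2, Clock and Cry1), 1 was higher with intervals apart (Per2), and Arntl and Nr1d1 overlapped. Of all genes reaching an FPKM of 1 in either library, 20.2% were lower and 14.8% higher with intervals apart, and of all genes above 0 in either, 14.4% and 11.2%. The read number implied by the interval was even for 88.4% of genes with 1 to 9 reads in the Klf9-OE library and for 36.3% in control. With the Klf9-OE intervals widened as if reads were counted in pairs, the same 6 genes were apart, against 16.9% in the lower and 11.7% in the higher direction of all genes reaching an FPKM of 1 in either library. No clock gene with a level in both libraries differed 2-fold. Of all genes reaching an FPKM of 1 in either library, 3.93% were 2-fold or more above control and 3.79% as far below it, and the shares were 9.83% and 9.44% of the genes above 0 in either. For the 8 genes the log2 fold change had a median of -0.24, beside -0.03 over the 12560 genes reaching an FPKM of 1, whose quartiles were -0.21 and 0.14. When Klf9-OE values were rescaled to the same sum, Cry1 no longer stood apart, and the split over all genes turned from 2086 higher and 2686 lower to 2855 higher and 2014 lower.

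Among the activators, Npas2 was the clock gene with the lowest ratio. It had an FPKM of 5.47 in control and 2.96 (2.63 to 3.28) in Klf9-OE PGCs, which is 0.541 times the control level (2 SD of estimation, 0.469 to 0.624). Its log2 fold change of -0.87 was above that of 4.55% of the 12560 genes. Npas2 lies on chromosome 1 of mm10 from 39193731 to 39363236, and its principal transcript has 21 exons. Clock, which takes the same partner, was at 16.5 and 13.7 (13.2 to 14.2), a ratio of 0.831 (0.785 to 0.880). The level of Clock was 3.02 times that of Npas2 in control (2.73 to 3.33) and 4.63 times in Klf9-OE PGCs (4.12 to 5.21), so these ranges did not overlap. Arntl, the common partner, had values of 15.0 and 15.3 (14.3 to 16.3), with a ratio of 1.02 (0.928 to 1.13). Its values could not be told apart by these intervals, and the bounds of its ratio lie on both sides of equality. Arntl lies on chromosome 7 from 113207465 to 113314126 and Clock on chromosome 5 from 76209868 to 76304792.

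The Period genes, which encode repressors that act with the cryptochromes, differed from each other in direction. Per1 (chromosome 11, 69095217 to 69109960), whose promoter holds an E-box and a GC box, was at 16.5 in control and 11.8 (11.1 to 12.4) in Klf9-OE PGCs, a ratio of 0.714 (0.662 to 0.770). Per2 (chromosome 1, 91415982 to 91459324) was at 1.56 and 2.17 (1.95 to 2.38), a ratio of 1.39 (1.17 to 1.64), and was the only member with a higher level and intervals apart. The level of Per1 was 10.6 times that of Per2 in control (9.11 to 12.2) and 5.43 times in Klf9-OE PGCs (4.85 to 6.07), with Per1 the more abundant in both libraries. Per3 (chromosome 4, 151003652 to 151044665) was at 11.0 in control. In Klf9-OE its row was merged with that of Vamp3, a vesicle membrane gene 2634 bases away on the same strand, and no level of its own was given. The merged row had an FPKM of 170 (162 to 177), and the control values of Per3 and Vamp3 summed to 162 (159 to 166), of which Per3 made up 6.79%. The ratio of 1.04 (0.995 to 1.10) describes the joint row, and no ratio is given for Per3.

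Both cryptochromes, the repressors that bind the activator pair, had lower values in Klf9-OE PGCs. Cry1 (chromosome 10, 85131700 to 85185064) was at 42.2 in control and 37.6 (35.6 to 39.6) in Klf9-OE PGCs, a ratio of 0.892 (0.837 to 0.951). Cry2 (chromosome 2, 92403646 to 92434043), whose promoter window held 5 GC boxes, was at 10.7 and 8.07 (7.47 to 8.68), a ratio of 0.756 (0.681 to 0.840). The Cry1 level was 3.95 times that of Cry2 in control (3.64 to 4.28) and 4.66 times in Klf9-OE PGCs (4.25 to 5.11), and these ranges overlapped by a narrow margin. The gap between the Cry1 intervals was also narrow, from 39.6 to 40.7, and with reads counted in pairs it shrank to between 40.5 and 40.7. The Klf9-OE to control ratio of the read numbers implied by the Cry1 intervals was 0.399 times that expected from the ratios of FPKM and depth. For Clock it was 1.43 times, and read numbers for these genes are nominal.

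Nr1d1, the repressor of Arntl, was at 8.69 in control and 7.46 (6.87 to 8.05) in Klf9-OE PGCs, a ratio of 0.858 (0.759 to 0.971) with deposited intervals that overlapped. On chromosome 11, from 98767932 to 98775333, its gene shares 1075 bases with the end of Thra, which encodes thyroid hormone receptor alpha on the opposite strand. The kit did not mark strand, so reads in the shared stretch could not be assigned by strand. Thra was at 5.56 (4.75 to 6.37) in control and 2.45 (2.07 to 2.83) in Klf9-OE PGCs, and the row assembled for it reached into Nr1d1 in the control library only. Nr1d2, the paralog that encodes REV-ERB beta, has no such overlap with Thra. It was far more abundant, at 53.2 (50.7 to 55.8) and 73.7 (71.0 to 76.3), a ratio of 1.38 (1.30 to 1.47). The level of Nr1d2 was 6.12 times that of Nr1d1 in control (5.51 to 6.81) and 9.87 times in Klf9-OE PGCs (9.05 to 10.8).

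Dbp, the output gene, was at 2.83 in control and was listed at 0, with bounds of 0, in Klf9-OE PGCs. Dbp (chromosome 7, 45705088 to 45710203) overlaps Sphk2, a sphingosine kinase gene on the opposite strand, over 737 bases, and Sphk2 overlaps Rpl18 in turn. Sphk2 was also listed at 0 in Klf9-OE, after 8.51 (7.84 to 9.18) in control, whereas Rpl18 was at 1977 and 1920. Leaving out small RNAs, 71 genes with an FPKM of at least 1 in control were listed at 0 in Klf9-OE, and 8 of them overlapped another gene of that kind. These were 0.589% of the 12056 genes at that level in control, small RNAs included. In the other direction there were 115 genes, 0.948% of the 12131 at that level in Klf9-OE. Examples, picked after their values were seen, are Mrps26 at 43.1 in control and 0 in Klf9-OE and Ndufb10 at 0 and 122. The Dbp row did not have a failed status. Whether its 0 stands for absent transcripts or a failed estimate was not tested, and no fold change is given for Dbp. The maps of the neighbourhoods of Dbp, Nr1d1 and Per3 show Sphk2, Rpl18, Thra and Vamp3 beside them.

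**Figure D3:**
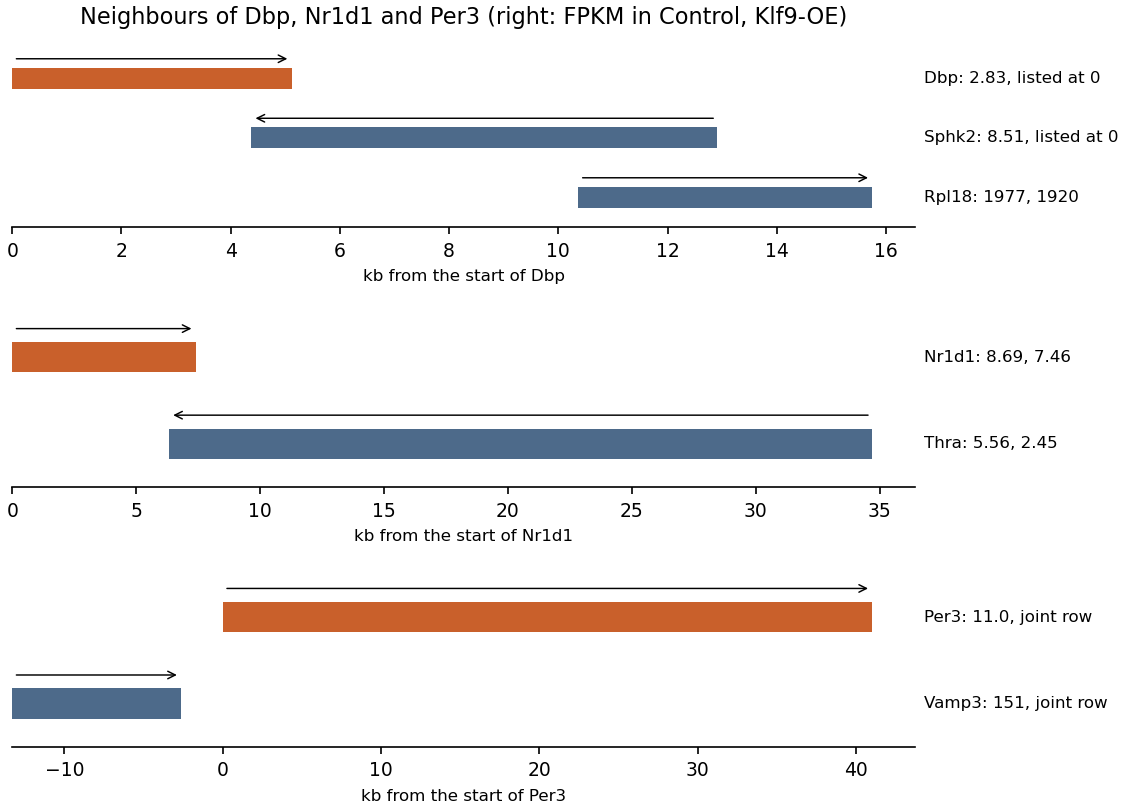
GENCODE gene spans around Dbp, Nr1d1 and Per3 in kb from the start of the clock gene, with arrows for the direction of transcription and the FPKM in control and Klf9-OE at the right. Sphk2 runs into the end of Dbp and both are listed at 0 in Klf9-OE, Thra runs into the end of Nr1d1, and Per3 lies beyond Vamp3 on the same strand. Camta1, which spans Per3 and Vamp3 on the same strand, is not drawn.

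Of 11 genes of the additional feedback loop, 8 had an FPKM of at least 1, and 3 of them were higher and 3 lower in Klf9-OE PGCs with intervals apart, beside 14.8% and 20.2% of all genes reaching that level. None of the 11 differed 2-fold, beside 9.83% higher and 9.44% lower of all genes above 0 in either library, and their median log2 fold change was -0.12. Arntl2, the paralog of Arntl, was at 4.45 (3.83 to 5.07) and 6.55 (5.89 to 7.21), a ratio of 1.47 (1.24 to 1.75). The level of Arntl was 3.37 times that of Arntl2 in control and 2.34 times in Klf9-OE PGCs. Bhlhe41, a repressor that competes for E-boxes, was at 0.834 (0.683 to 0.985) and 1.22 (1.05 to 1.39), and with reads counted in pairs its intervals met. Nr1d2 was the remaining gene with a higher value, and Ciart and Tef were among those with a lower one. Values for Ciart, a repressor of the activator pair, were 11.0 (9.80 to 12.3) and 8.02 (7.08 to 8.97), and those for Tef, a D-box activator related to Dbp, were 15.1 (14.2 to 16.0) and 12.8 (12.1 to 13.6).

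Among 12 genes for kinases, phosphatases and ubiquitin ligases that act on clock proteins, all reaching an FPKM of 1, 1 was higher and 2 were lower with intervals apart, 9 had overlapping intervals and the median log2 fold change was -0.06. Of all genes reaching that level, 14.8% were higher and 20.2% lower with intervals apart. Btrc, which encodes a ubiquitin ligase subunit that recognizes phosphorylated PER proteins, was at 13.0 (12.3 to 13.6) and 24.1 (22.5 to 25.7), a ratio of 1.86 (1.71 to 2.02). The Klf9-OE to control ratio of its implied read numbers was 0.272 times that expected from the ratios of FPKM and depth. Csnk1e, a kinase of PER proteins, was at 38.2 (36.4 to 39.9) and 25.1 (23.6 to 26.6), a ratio of 0.656 (0.608 to 0.707), while its paralog Csnk1d was at 44.7 and 43.8 with a ratio of 0.980 (0.924 to 1.04). Prkaa1, an AMP-activated kinase subunit, had a ratio of 0.787 (0.709 to 0.874). Fbxl21, a ligase subunit for cryptochromes, had values of 3.16 and 2.47 with overlapping intervals. None of the 12 differed 2-fold, beside 3.93% of all such genes in the higher and 3.79% in the lower direction.

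Of 9 output genes under clock control, 7 had an FPKM of at least 1, 2 of which were higher in Klf9-OE PGCs with intervals apart, 0 lower and 5 overlapping, beside 14.8% higher and 20.2% lower of all genes reaching that level. Noct, which encodes nocturnin, was at 14.4 and 19.0 with a ratio of 1.32 (1.21 to 1.44), and the cell cycle inhibitor Cdkn1a was at 12.4 (11.3 to 13.6) and 14.9 (13.7 to 16.1). With reads counted in pairs the intervals of Cdkn1a met. Por, which encodes cytochrome P450 oxidoreductase, had a ratio of 0.917 (0.812 to 1.04) with overlapping intervals. The Klf9-OE to control ratio of implied read numbers was 0.563 times that expected from FPKM and depth for Noct and 12.9 times for Por. Avp, at 0.0599 in control and listed at 0 in Klf9-OE, was the only output gene past 2-fold, with 0.25 implied reads in control. The median log2 fold change of this list was -0.10. Among 6 glucocorticoid-responsive genes, Klf9 itself was 35.6-fold higher by FPKM, and the FPKM does not separate vector from endogenous transcripts. The ratio of the Klf9 implied read numbers was 0.185 times that expected from FPKM and depth. Of the others, Sgk1 had a ratio of 0.824 (0.765 to 0.887), Dusp1 1.10 (0.980 to 1.25) and Tsc22d3 1.10 (1.04 to 1.16).

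**Figure D4:**
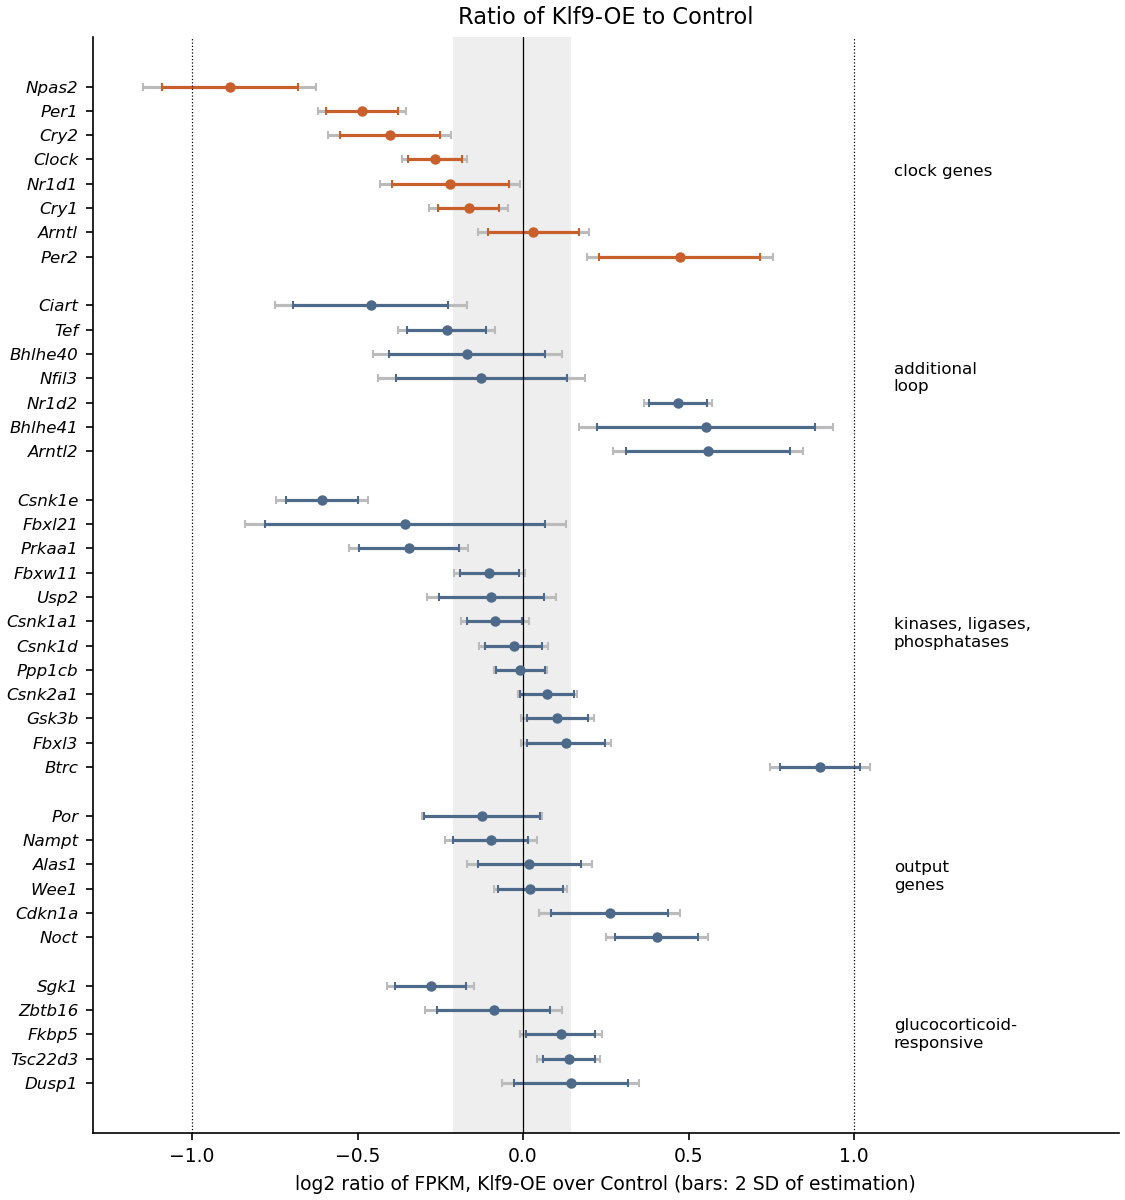
Log2 ratio of FPKM, Klf9-OE over control, for 8 clock genes (orange) and the genes of 4 related lists with an FPKM of at least 1 (blue), without Klf9 and genes not reported here. Bars are 2 SD of estimation, grey bars the same with Klf9-OE reads counted in pairs, the grey band holds the middle 50% of the 12560 genes, and dotted lines mark 2-fold. Of the genes drawn, Npas2 and Csnk1e lie lowest and Btrc highest.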

How the data were processed

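RNA-seq libraries of 1 control and 1 Klf9-OE PGC culture were analysed. Per the labels and the methods of the study, the authors used TopHat2 with Bowtie to place single-end reads on mm10, and the deposited values are the FPKM of each locus that Cufflinks estimated with the bounds of its 95% interval. Cuffdiff results were not used here. Rows with a failed status (1 in control, 5 in Klf9-OE) and loci without a gene name were left out, FPKM of rows with the same symbol was summed, and log2 fold changes used a pseudocount of 0.1. Ratios used none, and their bounds combine the relative half-widths of both intervals, taken as 2 SD. A 2-fold difference is a ratio of 2 or more, or of 0.5 or less.

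The tables hold no read totals. Reads behind a value were implied from its interval, which gave 106 to 3264 reads for the 10 clock genes in control and 325 to 3009 for 8 of them in Klf9-OE, and 1.21 Klf9-OE reads per control read (median of 9586 genes). The Klf9-OE read numbers and this median were not adjusted for reads counted in pairs. Whole read numbers were counted within 0.06, for genes with 1 to 9 reads. The bounds cover counting and estimation error only.

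The clock genes and the related lists were chosen with earlier results of these data known. Named genes are all clock genes, the 4 genes of each related list with the largest log2 fold change in either direction at an FPKM of at least 1, any gene of a list past 2-fold, and protein-coding genes that overlap a clock gene. Others were added where a sentence needed them (paralogs, markers, genes listed at 0). Some genes of the related and marker lists are not reported here by name, though list counts include them, and the erythroid marker list is not reported. No likeness to other genes was sought, since 2 libraries give a single difference. Gene spans and exons are those of GENCODE M21 on mm10, and promoters those of RefSeq on GRCm38.p6, the same build. The steps were tested on simulated libraries. Alternatives were other pseudocounts, filters, folds, rescaling to the same upper quartile or sum, the highest row of a symbol, and intervals for reads in pairs. The software was pandas 2.3.3 and numpy 2.4.6 under Python 3.11.15, and matplotlib 3.10.9 drew the plots.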

Additional observations from a re-analysis of the deposited data

Results flagged for a closer look

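Loci without a gene name took no part in the comparisons. Within Per3 there were 6 in the Klf9-OE library and 1 in the control library, and this difference is what drew attention. Camta1, on the same strand, overlaps the whole of Per3 (41014 bases), so these loci also lie within the span of Camta1. Which gene they belong to was not tested. Of the 6, 5 lay in introns of Per3. The locus with the largest value, 89 bases in an intron of Per3 on chromosome 4 from 151032570 to 151032658 of mm10, had an FPKM of 408 (95% interval 190 to 626) with 14.0 implied reads. Over all 10 clock genes there were 12 such loci in Klf9-OE and 4 in control, and 15127 and 6482 over all loci deposited.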

How the results depend on the processing

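With 1 library per condition, no replicate could be left out. No paired analysis was possible because each group has a single library. The log2 fold change of each of the 8 clock genes kept its direction under pseudocounts of 0.01 and 1, both rescalings and the highest row alone. It moved by less than the 2 SD of estimation of the gene's ratio. The count of clock genes with intervals apart was 7, with Dbp included at its listed 0. It was 6 among genes above 0 in both libraries and 6 after rescaling to the same sum. Both settings were chosen after the data were seen. Over all genes, 4772 of the 18626 tested had intervals apart, and 4454 and 4869 did in these settings, in that order. The clock genes past 2-fold numbered 1, Dbp, by its listed 0. They became 2 at a ratio of 1.5 (Dbp and Npas2) and 0 among genes above 0 in both libraries. At a ratio of 1.5, the feedback list held 2, the kinase and ligase list 2 and the output list 2, beside 5836 of the 18737 genes above 0 in either library. The output list, at 1 in the main setting, held 0 with a pseudocount of 0.1 or 1, with an FPKM of at least 1, and among genes above 0 in both libraries. Over all genes, 3609 past 2-fold became 5836 at a ratio of 1.5, 2058 at a ratio of 4, 1597 and 596 with pseudocounts of 0.1 and 1, 970 with an FPKM of at least 1, and 1928 among genes above 0 in both libraries. The filters leave fewer genes to count and the other ratios shift the threshold, by construction.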
